A study of Drosophila melanogaster with 6 samples.

Results

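The 10 Atg genes Atg1, Atg2, Atg3, Atg5, Atg6, Atg7, Atg8a, Atg9, Atg13 and Atg18a encode core proteins of autophagy in Drosophila melanogaster. They were taken from the array table as the probe sets whose annotation gives exactly 1 gene symbol, equal to one of these names. Each gene was read by 1 probe set, so 10 of the 18769 probe sets tested, and 10 of the 11982 genes with such a probe set, are described here.

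Whole larvae of 3 genotypes were compared on 6 Affymetrix Drosophila Genome 2.0 arrays, 2 per genotype. Larvae of the first genotype carried 337-GAL4 and dTIP60E431Q, a form of the histone acetyltransferase Tip60 with a substitution in its catalytic domain. Those of the second carried 337-GAL4 and dTIP60WT, the wild-type protein, and control larvae came from 337-GAL4 and w1118 parents. All groups therefore carried the ubiquitous driver, and only the first 2 carried a UAS transgene. The transgenic larvae of each kind came from 1 insertion line, and the endogenous Tip60 gene was left in place in every group. Every array was hybridised with RNA from a separate pool of 35 larvae, kept at 25°C for 3 days from embryos laid within 3 hours of each other. The pools are the replicates, and the p-values set a genotype difference against the spread between pools, shared over the 3 genotypes. Variation between insertion lines was not measured.

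Autophagy encloses part of the cytoplasm in a double membrane, the autophagosome, which then fuses with the lysosome. The kinase Atg1, with Atg13, Atg17 and Atg101, starts the process, a lipid kinase complex that contains Atg6 marks the membrane, and Atg9, Atg2 and Atg18a bring in membrane and lipid. A pair of ubiquitin-like conjugation reactions, run by enzymes such as Atg7 and Atg3, then attaches Atg8a to the growing membrane. In Drosophila larvae the fat body is the tissue in which starvation and the steroid ecdysone are best known to start it, and transcription of Atg genes is one of several levels of its control.

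The initiating kinase gene and the gene of the membrane protein Atg8a were the members that differed most between genotypes. Atg1 was 3.81-fold higher (95% CI 3.06 to 4.74) and Atg8a 2.09-fold higher (1.63 to 2.69) in dTIP60E431Q larvae than in control larvae, and Atg6 and Atg2 rose by smaller amounts. The other conjugation genes, Atg7, Atg3 and Atg5, did not pass the test. In dTIP60WT larvae no member passed the test against the control.

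A gene was said to pass at a Benjamini-Hochberg adjusted p below 0.05 in limma, over all 18769 probe sets. Under this rule 4 of the 10 members were higher in dTIP60E431Q larvae than in control larvae and 0 were lower, where 11.9% of all probe sets were higher and 11.7% lower. With a fold of at least 2 added, 2 members passed, both higher, against 8.39% of all probe sets. At an unadjusted p below 0.05 there were 6 members, 5 higher and 1, Atg3, lower, where 19.6% of all probe sets were higher and 17.7% lower. Against dTIP60WT larvae 5 members were higher and 0 lower, with a background of 12.2% higher and 11.7% lower. Between dTIP60WT and control larvae 0 members passed in limma, where 1 probe set in all, that of Tip60 itself, passed (0.00533%). At an unadjusted p below 0.05 there were also 0 members, a count for which no share of all probe sets was computed. The members' intervals (95% CI) for this last comparison ran from -0.60 to 0.46 on the log2 scale. Both comparisons with the control use the same control arrays.

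The members' median log2 change was 0.52 in dTIP60E431Q and -0.04 in dTIP60WT larvae, each against control, beside medians of 0.04 and 0.00 over all probe sets. Both dTIP60E431Q arrays lay above the other 4 arrays for 8 members, a pattern that 27.1% of all probe sets showed. They lay below the other 4 for 1 member, Atg3, where the background was 24.2%, and overlapped them for Atg5. No member had a value at the lowest level at which the table piles up (exactly 1, 1.37% of all values).

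**Figure D1:**
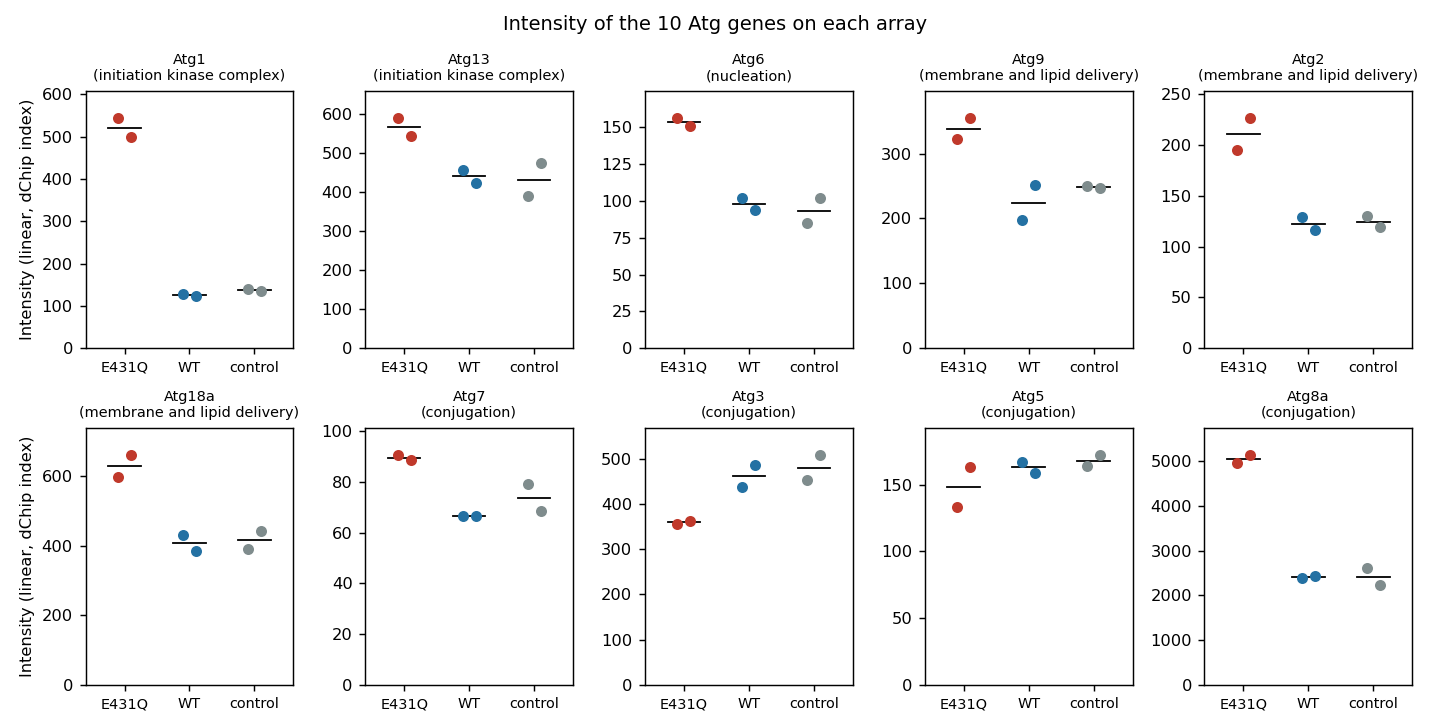
Intensity of the 10 Atg genes (linear scale from 0, 1 panel a gene, scales differ between panels) in dTIP60E431Q, dTIP60WT and control larvae; points are single arrays and bars the mean of 2. The dTIP60E431Q points stand above all others in 8 panels, below them in the Atg3 panel, and in the Atg5 panel 1 lies below and 1 among the others.

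Atg1 is the serine/threonine kinase on which induction of autophagy depends. Its intensity was 543 and 499 in dTIP60E431Q larvae, 127 and 124 in dTIP60WT larvae and 139 and 135 in control larvae. The dTIP60E431Q pools thus stood far above the rest, while pools of the same genotype differed little. The log2 change against control was 1.93 ± 0.118 (SE, adjusted p = 0.0055), higher than that of 95.8% of all probe sets. Against dTIP60WT larvae it was 2.06 (adjusted p = 0.00506).

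Atg13 is the regulatory subunit that holds the kinase complex together. It gave 588 and 542 in dTIP60E431Q larvae, 457 and 423 in dTIP60WT larvae and 389 and 473 in control larvae. The dTIP60E431Q values were the highest, but the control duplicates lay 1.22-fold apart, the widest of any member in that group. The log2 change against control was 0.40, with a 95% CI of -0.02 to 0.81 (adjusted p = 0.146), and was not separated from the replicate spread.

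The remaining measured subunits of the kinase complex are not among the 10 members and were taken from a list of the pathway. Atg17, the fly counterpart of the scaffold FIP200, had 262 and 209 in dTIP60E431Q larvae, 77.0 and 70.0 in dTIP60WT larvae and 79.4 and 80.0 in control larvae (log2 change against control 1.55, adjusted p = 0.00871). Atg101, a partner of Atg13, had 267 and 302, against 97.0 and 83.8 in dTIP60WT and 79.9 and 91.9 in control larvae (1.73, adjusted p = 0.00759). Of the 4 genes of the complex 3 therefore rose and Atg13 did not pass, with a median log2 change of 1.64 beside 0.03 over all genes. With 1 probe set taken per gene, 14.2% of all genes passed higher and 14.2% lower, 28.4% in all.

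Atg6, the fly Beclin 1, is a subunit of the class III phosphatidylinositol 3-kinase complex that lays down the lipid mark of the young autophagosome. Its intensity was 156 and 151 in dTIP60E431Q larvae, 102 and 94.0 in dTIP60WT larvae and 84.8 and 102 in control larvae. Both dTIP60E431Q arrays stood above the other 4, while the dTIP60WT and control values overlapped, and the log2 change was 0.72 ± 0.147 against control (SE, adjusted p = 0.0329) and 0.65 against dTIP60WT (adjusted p = 0.0412). The other 5 genes of these complexes did not pass. Pi3K59F, the catalytic subunit, had 111 and 73.4 in dTIP60E431Q larvae, against 147 and 113 in control larvae (log2 change -0.51, adjusted p = 0.261). Atg14, the subunit that directs the complex to autophagosome formation, had 180 and 176, against 128 and 136 (0.43, adjusted p = 0.105). Rubicon, Uvrag and Vps15 had log2 changes of 0.67, 0.26 and -0.19 (adjusted p = 0.118, 0.17 and 0.342).

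The 3 members that supply membrane and lipid were all highest in dTIP60E431Q larvae, and 1 of them passed. Atg2, a lipid transfer protein, had 195 and 226 in dTIP60E431Q larvae, 129 and 116 in dTIP60WT larvae and 130 and 119 in control larvae. Its log2 change was 0.75 ± 0.146 against control (SE, adjusted p = 0.0297) and 0.78 against dTIP60WT (adjusted p = 0.0267). Atg18a, a protein that binds the lipid mark, had log2 intensities of 9.23 and 9.37 in dTIP60E431Q larvae, 8.75 and 8.58 in dTIP60WT larvae and 8.61 and 8.79 in control larvae.

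Atg18a lay close to the threshold in both comparisons. Its log2 change was 0.60 against control (95% CI 0.21 to 0.99, adjusted p = 0.0512), which did not pass, and 0.63 against dTIP60WT (adjusted p = 0.0445), which did. Its probe set is of a type that can match more than 1 transcript family. Atg9, the membrane-spanning protein of the pathway, had 323 and 354 in dTIP60E431Q larvae, 197 and 251 in dTIP60WT larvae and 250 and 247 in control larvae. The dTIP60WT duplicates of Atg9 were the least alike of any member in that group, 1.27-fold apart. Its log2 change was 0.44 against control (95% CI 0.00 to 0.89, adjusted p = 0.134) and 0.60 against dTIP60WT (adjusted p = 0.0674). Atg18b, a paralogue of Atg18a outside the 10 members, had 142 and 171 in dTIP60E431Q larvae, 68.0 and 67.8 in dTIP60WT larvae and 66.2 and 74.4 in control larvae (log2 change against control 1.15, adjusted p = 0.013).

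Atg8a, the fly counterpart of LC3, is the ubiquitin-like protein that is joined to lipid on the autophagosome and is consumed there. It had the highest intensities of the 10 probe sets, 4960 and 5130 in dTIP60E431Q larvae, 2380 and 2440 in dTIP60WT larvae and 2610 and 2220 in control larvae. The dTIP60WT and control ranges overlapped, and the dTIP60E431Q range stood clear of both. The log2 change was 1.07 ± 0.136 against control (SE, adjusted p = 0.0121) and 1.07 against dTIP60WT (adjusted p = 0.0114).

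The enzymes that join Atg8a to the membrane gave other values. Atg7, the E1-like enzyme of both conjugation reactions, was the dimmest member, with 90.5 and 88.5 in dTIP60E431Q larvae, 66.6 and 66.4 in dTIP60WT larvae and 79.0 and 68.5 in control larvae. The groups did not overlap, yet the log2 change of 0.28 against control (95% CI -0.06 to 0.63) did not pass (adjusted p = 0.198). Against dTIP60WT it was 0.43 (adjusted p = 0.0836).

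Atg3, the E2-like enzyme that hands Atg8a to its lipid, had its lowest values in dTIP60E431Q larvae: 356 and 363, against 438 and 487 in dTIP60WT larvae and 452 and 508 in control larvae. It was the only member with both dTIP60E431Q arrays below the other 4. Its log2 change was -0.41 against control (95% CI -0.77 to -0.06, adjusted p = 0.097) and -0.36 against dTIP60WT (adjusted p = 0.13), so it did not pass either comparison. Atg5, which is joined to Atg12 and then promotes the last step, had 133 and 163 in dTIP60E431Q larvae, 167 and 159 in dTIP60WT larvae and 164 and 172 in control larvae. The dTIP60E431Q pools disagreed most on this member, by 1.23-fold, and the log2 change was -0.19 (95% CI -0.60 to 0.21, adjusted p = 0.416).

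**Figure D2:**
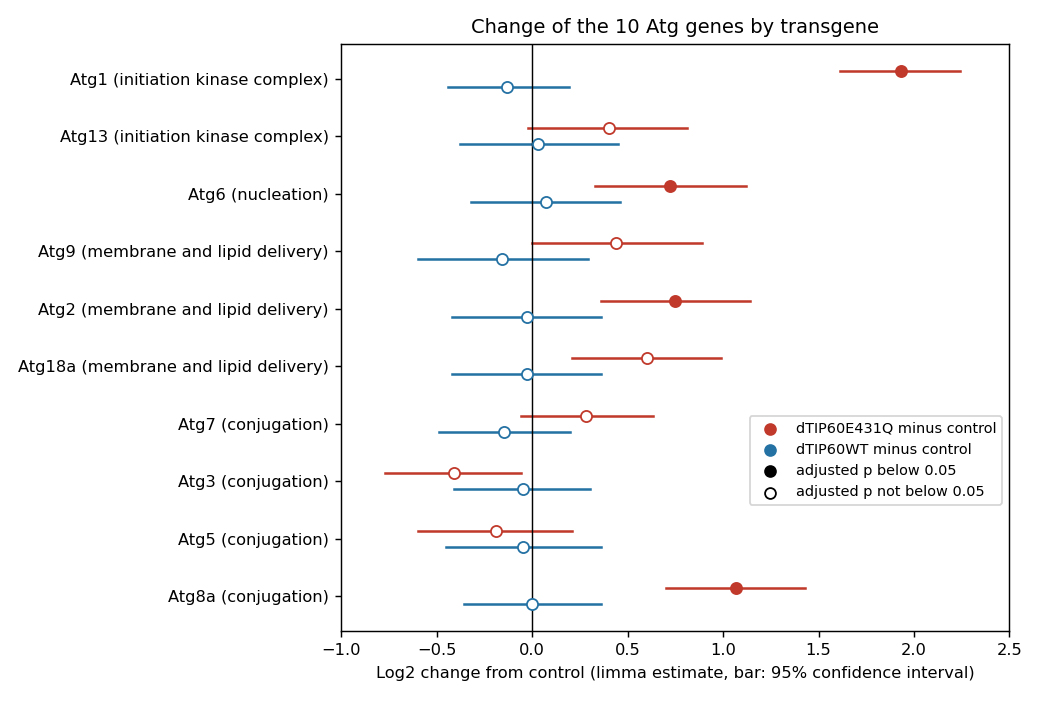
Log2 change of each Atg gene from control in dTIP60E431Q (red) and dTIP60WT larvae (blue), ordered by step of the pathway; points are limma estimates from 2 arrays a genotype, bars 95% confidence intervals, and filled points passed at adjusted p below 0.05. The 4 filled points, for Atg1, Atg6, Atg2 and Atg8a, are all of dTIP60E431Q, and the blue points lie between -0.16 and 0.07.

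The 6 further genes of the conjugation list did not pass against control. Atg12, the partner of Atg5, had 191 and 206 in dTIP60E431Q larvae, 258 and 231 in dTIP60WT larvae and 236 and 259 in control larvae (log2 change against control -0.31, adjusted p = 0.174). Atg16, which completes the Atg5 complex, the E2-like Atg10 and the Atg8 proteases Atg4a and Atg4b had log2 changes of 0.28, 0.06, 0.22 and -0.10 (adjusted p = 0.238, 0.898, 0.404 and 0.669). The largest log2 change of the list belonged to Atg8b, a second Atg8 gene that is known mainly from the male germ line, with 28.4 and 52.8 in dTIP60E431Q larvae, 4.86 and 12.8 in dTIP60WT larvae and 4.11 and 13.4 in control larvae. Its log2 change of 2.39 did not pass (adjusted p = 0.107), and its duplicates differed widely in every group. Over the 10 genes of the list 1, Atg8a, was higher and 0 were lower, where 14.2% of all genes were higher and 14.2% lower. The median log2 change of the list was 0.14.

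Among the 10 Atg genes outside the 10 members, 3 rose in dTIP60E431Q against control larvae (Atg17, Atg101 and Atg18b) and 0 fell. Over all genes 14.2% were higher and 14.2% lower. The median log2 change of these 10 genes was 0.36. None of them passed between dTIP60WT and control larvae.

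The kinase gene was set against the conjugation genes array by array, each gene as its log2 intensity minus its own control mean. Atg1 stood 1.99 and 1.87 above its control mean in dTIP60E431Q larvae and at -0.11 and -0.15 in dTIP60WT larvae. The mean of Atg7, Atg3, Atg5 and Atg8a stood at 0.14 and 0.23 in dTIP60E431Q larvae and at -0.08 and -0.05 in dTIP60WT larvae. Atg1 thus exceeded the conjugation mean by 1.85 and 1.64 in dTIP60E431Q larvae, on average 1.74 ± 0.146 (SD, n = 2) or 3.35-fold.

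The corresponding difference was -0.04 and -0.10 in dTIP60WT larvae and -0.01 and 0.01 in control larvae, so the 2 dTIP60E431Q pools lay apart from the other 4. With 2 arrays a group an exact permutation test cannot go below p = 0.333, and no test of this difference was made. The 4 conjugation genes did not move as 1 group. Atg8a exceeded the mean of the other 3 by 1.20 and 1.15 in dTIP60E431Q larvae, against 0.08 and 0.09 in dTIP60WT larvae and 0.12 and -0.12 in control larvae.

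Taken one by one, the excess of the Atg1 change over that of another member in dTIP60E431Q larvae was smallest for Atg8a, 0.95 and 0.78 on the 2 arrays. It was largest for Atg3, 2.42 and 2.27. Against Atg13, the partner of Atg1 in the same complex, it was 1.54 and 1.53, beside -0.20 and -0.12 in dTIP60WT larvae and 0.16 and -0.16 in control larvae. These are differences between changes and say nothing of which transcript was the more abundant.

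**Figure D3:**
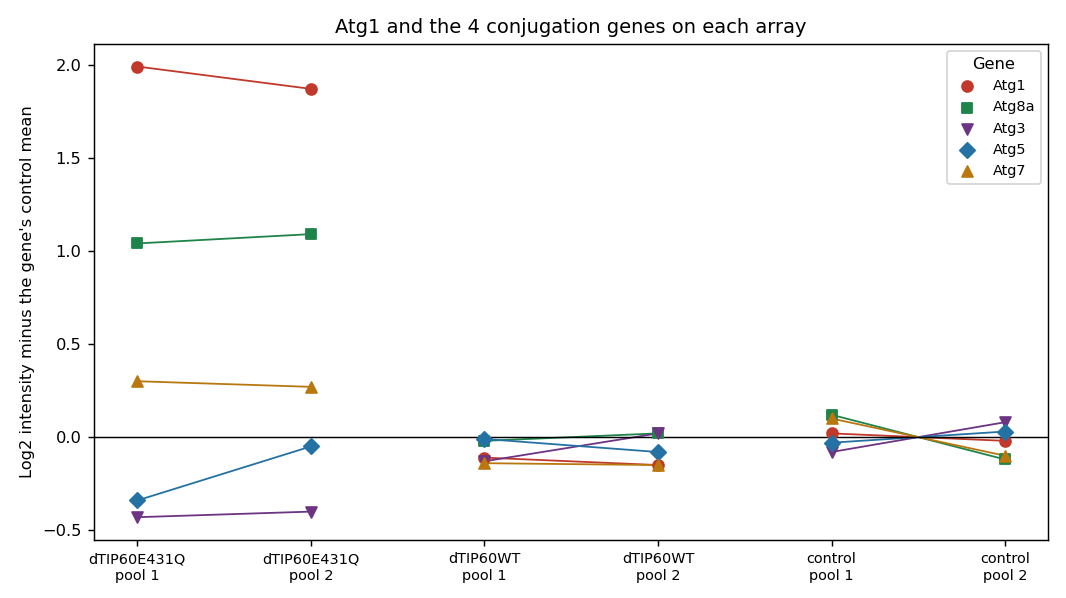
Log2 intensity of Atg1 and of the 4 conjugation genes on each array, minus the gene's control mean; lines join the 2 pools of a genotype. On both dTIP60E431Q arrays the order was Atg1, Atg8a, Atg7, Atg5, Atg3, and on the other 4 arrays all 5 genes lay near 0.

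The genes whose profile over the 6 arrays, centred on its own mean, lay nearest to that of Atg1 were sqa, CG12607 and geko, among 11981 genes. Their root mean square distances were 0.059, 0.077 and 0.078 on the log2 scale. The nearest, sqa, had 466 and 415 in dTIP60E431Q larvae, 109 and 103 in dTIP60WT larvae and 116 and 126 in control larvae. For Atg8a the nearest were Ms, CG15611 and Mco1, at 0.062, 0.068 and 0.071. Ms had 210 and 206 in dTIP60E431Q larvae, 106 and 99.7 in dTIP60WT larvae and 111 and 101 in control larvae. These genes share the 6 arrays and the genotype difference with Atg1 and Atg8a.

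The steps before and after those of the 10 members were described from lists of the pathway. Of the cargo list, ref(2)P, the fly p62, which binds ubiquitinated cargo and is itself degraded with it, changed more than any member. It had 2380 and 3040 in dTIP60E431Q larvae, 369 and 408 in dTIP60WT larvae and 425 and 473 in control larvae (log2 change against control 2.59 ± 0.175 SE, adjusted p = 0.00566). The scaffold gene bchs had 75.4 and 79.7 in dTIP60E431Q larvae, against 59.1 and 61.7 in control larvae (0.36, adjusted p = 0.0935).

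None of the 8 genes measured for fusion with the lysosome passed against control, where 28.4% of all genes passed. Their median log2 change was 0.02. Vamp7, a membrane fusion protein, had the smallest p of them, with 550 and 608 in dTIP60E431Q larvae, 905 and 1010 in dTIP60WT larvae and 931 and 816 in control larvae (log2 change against control -0.59, adjusted p = 0.0521). Against dTIP60WT larvae Vamp7 passed as lower (-0.73, adjusted p = 0.0315). Snap29, car and Vps39, of the same machinery, had -0.35, -0.31 and 0.33 (adjusted p = 0.148, 0.15 and 0.164).

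Of 8 lysosomal genes 2 were higher and 1 lower, where 14.2% of all genes were higher and 14.2% lower. The median log2 change of the list was 0.23. The 3 that passed are cathepsin genes, proteases of the lysosome, while the further cathepsin genes CtsB and cathD had log2 changes of 0.33 and 0.14 (adjusted p = 0.203 and 0.582). CtsF had 1810 and 2270 in dTIP60E431Q larvae, 595 and 565 in dTIP60WT larvae and 600 and 610 in control larvae (log2 change against control 1.74, adjusted p = 0.00749). CtsL1 had 3480 and 3720, against 1470 and 1630 in dTIP60WT and 1650 and 1600 in control larvae (1.15, adjusted p = 0.00945). CtsK1 fell, with 513 and 537 in dTIP60E431Q larvae, 1180 and 1170 in dTIP60WT larvae and 1230 and 1140 in control larvae (-1.17, adjusted p = 0.00841). Ppt1, a lysosomal thioesterase, had a log2 change of 0.36 (adjusted p = 0.106).

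Of 20 genes of nutrient and TOR control 5 were higher and 2 lower, where 14.2% of all genes were higher and 14.2% lower. The median log2 change of the list was -0.02. The TOR kinase complex restrains Atg1 through phosphorylation when nutrients are plentiful, and the transcription factors REPTOR and REPTOR-BP act when it is inhibited. REPTOR-BP had 372 and 338 in dTIP60E431Q larvae, 108 and 110 in dTIP60WT larvae and 115 and 119 in control larvae (log2 change against control 1.60, adjusted p = 0.00617). REPTOR had 569 and 549, against 168 and 136 in dTIP60WT and 210 and 208 in control larvae (1.42, adjusted p = 0.00898). Sesn, an inhibitor of TOR signalling, had 453 and 445, against 194 and 205 in dTIP60WT and 207 and 227 in control larvae (1.05, adjusted p = 0.0103).

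For all 3 both dTIP60E431Q arrays lay above the other 4, a pattern that 27.1% of all probe sets showed. These 3 genes were named by their small p, so this order follows from the choice. The last gene of this list named by its small p, alc, was at 13.7 and 9.15 in dTIP60E431Q larvae and at exactly 1.00 on both control arrays, so no fold is given. A further 3 genes are named here after their values were seen. mTor, the TOR kinase itself, and RagC-D, a GTPase that signals amino acids to it, fell, with log2 changes of -0.69 and -0.48 (adjusted p = 0.0369 and 0.0478). Mitf, the fly counterpart of TFEB, a regulator of lysosomal and autophagy genes, had 55.1 and 57.4 in dTIP60E431Q larvae, 44.1 and 29.2 in dTIP60WT larvae and 22.5 and 28.2 in control larvae (1.16, adjusted p = 0.039 against control and 0.146 against dTIP60WT).

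**Figure D4:**
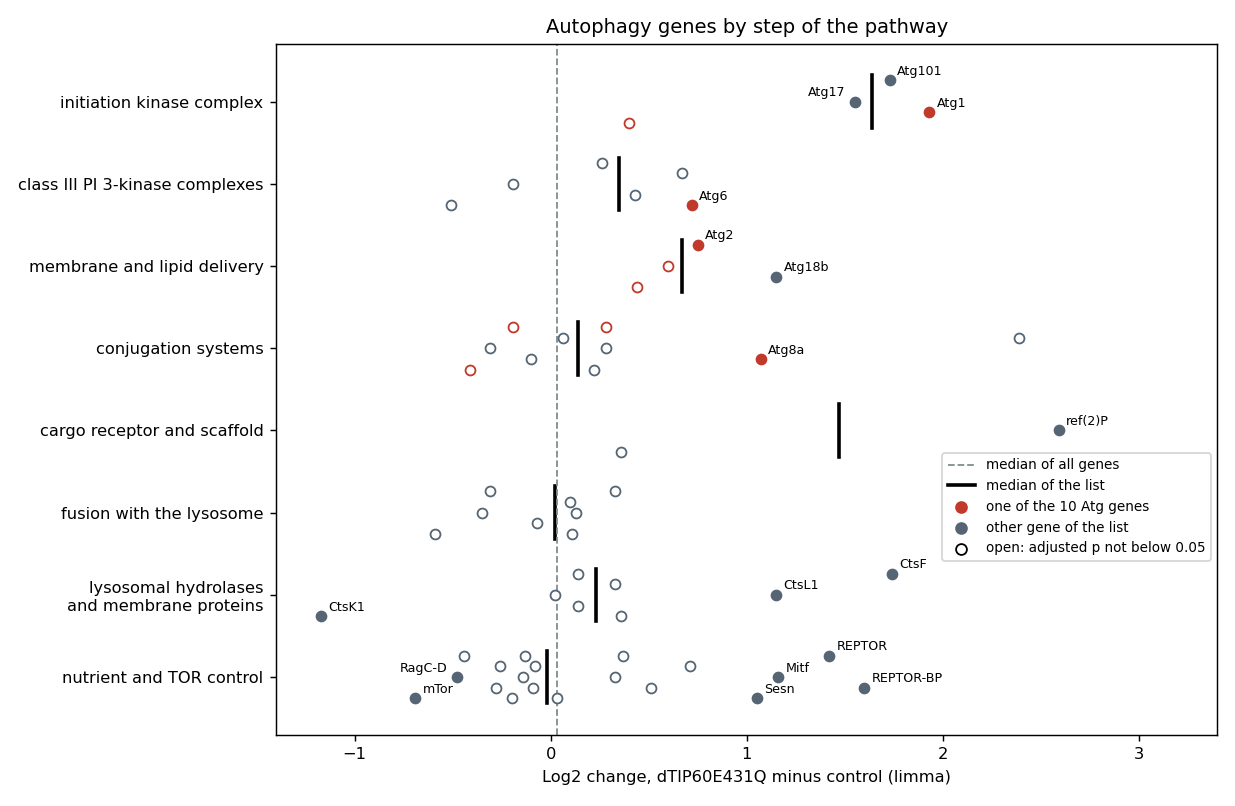
Log2 change, dTIP60E431Q minus control, of every measured gene of 8 lists of the autophagy pathway; red points are the 10 Atg genes, grey points other genes, filled points passed at adjusted p below 0.05, short black bars are list medians and the dashed line is the median of all genes (0.03). The gene alc, at the lowest level in control larvae, is not drawn. Of the initiation genes 3 of 4 are filled and of the fusion genes 0 of 8, where 28.4% of all genes passed in either direction.

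The transgene was read on the same arrays. The Tip60 probe set gave 5170 and 5460 in dTIP60E431Q larvae, 3040 and 2750 in dTIP60WT larvae and 30.8 and 29.2 in control larvae, so the 2 transgenic groups differed 1.84-fold in Tip60 signal (adjusted p = 0.0142). RpL32, a ribosomal protein gene, had a log2 change of -0.09 between dTIP60E431Q and control larvae (adjusted p = 0.595). The median intensity of an array was 51.5 and 51.9 in dTIP60E431Q larvae, 43.8 and 45.2 in dTIP60WT larvae and 44.4 and 43.6 in control larvae.

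Marker genes of some tissues also moved with genotype. Over 5 measured fat body markers the summed intensity was 11300 and 9710 in dTIP60E431Q larvae, 34500 and 33600 in dTIP60WT larvae and 39400 and 33100 in control larvae. Of these markers Lsp2 and Fbp2 fell, and Yp1, a dim one, was 1.57-fold higher (adjusted p = 0.0326). The markers apolpp and Fbp1 did not pass (adjusted p = 0.0999 and 0.446). Fbp1 differed widely between pools, with 3.32 and 6.42 in dTIP60E431Q, 5.01 and 1020 in dTIP60WT and 1330 and 7.09 in control larvae. Salivary gland markers summed to 1480 and 2700, against 5960 and 7340 in dTIP60WT and 7260 and 6120 in control larvae. Of these 5 markers only ng1 passed, as lower, and it made up most of each sum. Body wall muscle markers summed to 12900 and 13400, against 18000 and 17200 in dTIP60WT and 17500 and 18100 in control larvae. Of these 3 markers TpnC73F fell (adjusted p = 0.0249). The other markers, up and Mlc2, went in opposite directions and did not pass (log2 change -0.33 and 0.41, adjusted p = 0.109 and 0.162). The sum of 4 midgut markers was 23900 and 25000 in dTIP60E431Q larvae, against 24000 and 26000 in control larvae. However, 1 of them, Mal-A1, was 2.52-fold higher (adjusted p = 0.00798). Among 5 hemocyte and 4 nervous system markers 0 passed. In RNA of whole larvae, fewer cells of a type and less RNA per cell cannot be told apart, and the part of tissue make-up or developmental stage in the Atg values was not tested. Within the control and dTIP60WT groups the pools themselves differed in late larval genes: the glue gene Sgs8 had 1.67 and 357 in dTIP60WT larvae and 304 and 3.53 in control larvae. No member differed between these same duplicates by more than 1.27-fold. Lsp2 did not split between these pools, with 13400 and 13200 in dTIP60WT larvae and 15100 and 13500 in control larvae. It was at 140 and 130 in dTIP60E431Q larvae. A link of the Atg values to either difference was not tested.

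The calls of the smaller changes moved with the scaling of the arrays. Every array was brought to the same median. The median change of all probe sets between dTIP60E431Q and control larvae then moved by -0.24 on the log2 scale, from 0.04 to -0.20. That of the members moved with it, from 0.52 to 0.29. Atg1 (1.70, adjusted p = 0.00549) and Atg8a (0.83, adjusted p = 0.0181) still passed. Atg6 (0.49, adjusted p = 0.096) and Atg2 (0.52, adjusted p = 0.0742) did not. Atg3 passed as lower (-0.65), which gave 2 members higher and 1 lower in place of 4 and 0. Quantile normalization instead gave 5 members higher and 0 lower. Under it Atg6 (0.58, adjusted p = 0.048), Atg2 (0.63, adjusted p = 0.0341) and Atg18a (0.53, adjusted p = 0.0436) passed beside Atg1 and Atg8a. Atg3 then did not pass (-0.49, adjusted p = 0.0532). All probe sets passed at 25.1% and 25.2% under the 2 scalings. With the arrays brought to the same median, the conjugation list had a median of -0.09 and the fusion list one of -0.22. The median of all probe sets was then -0.20, so the fusion list lay near it and the conjugation list above it. In the fusion list 3 genes then passed as lower, a count for which no share of lower genes was computed.

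Leaving out any 1 of the 6 arrays left Atg1 past the threshold (adjusted p at most 0.0473, without the first control array). A genotype left with 1 array has no spread of its own in such a fit, and is assumed to vary like the other groups. Atg8a then passed without either dTIP60WT array (adjusted p = 0.0395 each time) and lay between 0.0524 and 0.0593 without any other array. Atg6 and Atg2 passed in none of these fits, in which between 4.13% and 14.7% of all probe sets passed in either direction, against 23.6% with all arrays. The log2 changes themselves stayed between 0.59 and 0.86 for Atg6 and between 0.64 and 0.86 for Atg2. Among the genes outside the 10 members, ref(2)P and REPTOR-BP passed in all 6 of these fits, and were the only listed genes to pass without the first control array.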

How the data were processed

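Expression was measured on 6 arrays of whole larvae. The authors quantitated the scans in GCOS and made normalized model-based expression indexes in dChip; the deposited values are linear intensity values, taken to be these indexes, from 0.69 to 18115.15. Versions, the baseline array and the probe model are not given in the sources used here. The number of arrays, not read depth, limits the precision.

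The table holds 18952 probe sets, and 183 Affymetrix controls were left out. By the platform annotation of 2016, 13647 of the 18769 tested have 1 gene symbol, 402 several and 4720 none. Log2 values, with no pseudocount and no filter, were fitted in limma 3.58.1 (R 4.3.3, statmod 1.5.0) with 1 mean per genotype over all 6 arrays (3 residual degrees of freedom, prior 1.43, median residual SD 0.241), and p was adjusted by Benjamini-Hochberg over all 18769. The fit was tested on simulated data. Lists used the probe set with the highest mean of each gene; 7 listed genes were not analysed here. Named genes are the 10 members, Tip60, RpL32, the other Atg genes, up to 4 genes outside the members with the smallest p in each list, and the 3 nearest profiles of Atg1 and of Atg8a; mTor, RagC-D, Mitf, CtsB, cathD and the tissue markers were named outside this rule, after their values were seen. Members and lists were chosen with earlier results of these data known. Alternatives were a replicate block, a fit of only the 4 arrays compared, median scaling, quantile normalization, a moderation with limma's trend and robust options, a floor at the 20th percentile, a pseudocount of 16, a filter below the 40th percentile of mean level, a fold of at least 2, the methods' t-test, other averaging of conjugation genes or probe sets, and each array left out in turn. The methods' t-test was counted at p of at most 0.05 together with a fold above 2. The confidence bound of the fold that those methods add was not applied. No sequence is printed, since none was used here. Plots were drawn in matplotlib.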

Additional observations from a re-analysis of the deposited data

How the results depend on the processing

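With 2 pools a genotype, the count of members passing moved with the model, as did the share of all probe sets passing in either direction. For dTIP60E431Q against control it was 4 (23.6% of all probe sets). It was 2 with a fold of at least 2 and 2 in the fit of only the 4 arrays compared (14.7%). Trend and robust options gave 8 (7 higher, 1 lower, 31.3%). The methods' t-test, which also asked for a fold above 2, gave 2, and 0 after its adjustment by Benjamini-Hochberg. Only Atg1 and Atg8a had such a fold, so that count could not exceed 2. Without 1 array the log2 changes ran from 1.87 to 1.99 for Atg1 and from 0.95 to 1.18 for Atg8a. Without a dTIP60WT array these log2 changes could not move, but the residual spread, its degrees of freedom and the prior were estimated anew. The other scalings, the floor, the pseudocount and the filter gave 3 to 6 members passing. The share was 25.1% to 29.7% of all probe sets, and 49.4% of the 11261 that the filter kept. For dTIP60E431Q against dTIP60WT the count was 5 (24.0%). It was 2 in the fit of 4 arrays (16.6%) and 3 under median scaling (2 higher, 1 lower, 25.7%). The filter gave 8 (7 higher, 1 lower, 50.1%). A fold of at least 2 gave 2, and the methods' t-test with a fold above 2 gave 2, or 0 after its adjustment. Without 1 array the log2 changes ran from 2.00 to 2.12 for Atg1 and from 1.04 to 1.09 for Atg8a. No share of all probe sets was computed for the methods' t-test in either comparison, or for the fold rule against dTIP60WT. Those counts therefore have no background beside them. No change of a member in these 2 comparisons turned its sign under any alternative.

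With the replicate block 2 members passed in each of these comparisons (14.3% and 15.7% of all probe sets), and 0 for dTIP60WT against control. Same-numbered arrays did not deviate together over all probe sets (correlations -0.0125 to -0.00735 over 18769 probe sets). Whether same-numbered pools were handled together is not stated, and this check could miss an effect on part of the genes.

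For dTIP60WT against control 0 members passed under every alternative, and changes near 0 turned sign: Atg8a was -0.02 under median scaling and 0.00 with the pseudocount, and Atg18a was 0.00 under quantile normalization. Without 1 array the ranges were -0.11 to 0.18 for Atg13, -0.06 to 0.20 for Atg6, -0.33 to 0.02 for Atg9, -0.10 to 0.05 for Atg2, -0.13 to 0.06 for Atg18a, -0.14 to 0.03 for Atg3 and -0.12 to 0.12 for Atg8a.

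Atg1 minus the conjugation mean was 1.74, 1.64 to 1.85 without 1 array and 1.60 to 1.74 otherwise. Of 52 listed genes outside the members 14 passed (26.9%, 11 higher and 3 lower, where 28.4% of all genes passed), 14 to 16 under the scalings and with probe sets averaged, and 2 to 12 without 1 array: 2 without the first control array, 5 without the second, and 8 without either dTIP60E431Q array.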
